A study of Homo sapiens with 6 samples.

Results

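The 5 fibroblast growth factor (FGF) receptor genes of the human genome, FGFR1, FGFR2, FGFR3, FGFR4 and FGFRL1, and all their annotated transcripts were followed in 6 RNA-seq libraries of HCT116, an established human colorectal carcinoma line of epithelial origin. They are 5 of the 58780 human genes in the deposited tables, and their 104 transcripts (43 of FGFR1, 27 of FGFR2, 11 of FGFR3, 16 of FGFR4 and 7 of FGFRL1) are among 206761. FGFR1 was selected on its difference in transcript usage between the same groups compared here, so its values are a description and carry no test. The other 4 genes were chosen by family membership. The groups were cells given auxin for 16 h and cells given DMSO, the solvent control, with 3 biological replicates each. Auxin, a hormone of plants, is given to engineered human cells to make a tagged protein degrade rapidly. Neither such a protein nor a tagged allele is named in the labels, and no time is given for DMSO. They call the replicates biological without saying that the cultures were separate, so p-values measure the spread between these samples.

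FGF receptors 1 to 4 are receptor tyrosine kinases with 3 immunoglobulin-like domains outside the cell, a transmembrane helix and a kinase inside. In FGFR1, FGFR2 and FGFR3 the C-terminal part of the third immunoglobulin domain is encoded by alternative exons, IIIb or IIIc, which set the choice of FGF ligands. The IIIb form is typical of epithelia and the IIIc form of mesenchyme. FGFR4 has a single form of this domain, and FGFRL1 has no kinase. Transcripts that leave out the exon of the transmembrane helix encode receptors without a membrane anchor.

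Exon IIIb of FGFR2 and both alternative exons of FGFR3 are shown because the transcripts below are grouped by such exons, and capitals mark the codons around the conserved cysteine at the end of the domain's fold. All are coding sequence from the GENCODE release 29 transcripts (GRCh38), 5′ to 3′ on the strand of the gene. Exon IIIb of FGFR2 lies at chr10:121518682-121518829 (minus strand, 148 bases). Exon IIIb of FGFR3 lies at chr4:1802914-1803064 (plus strand, 151 bases) and exon IIIc at chr4:1803692-1803836 (145 bases).
FGFR2 exon IIIb: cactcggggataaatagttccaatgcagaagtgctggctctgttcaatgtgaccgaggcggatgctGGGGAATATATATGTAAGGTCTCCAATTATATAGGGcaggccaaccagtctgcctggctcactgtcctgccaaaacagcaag
FGFR3 exon IIIb: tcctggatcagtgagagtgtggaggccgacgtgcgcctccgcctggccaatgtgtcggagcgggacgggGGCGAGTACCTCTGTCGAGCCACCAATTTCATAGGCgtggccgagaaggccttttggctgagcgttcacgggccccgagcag
FGFR3 exon IIIc: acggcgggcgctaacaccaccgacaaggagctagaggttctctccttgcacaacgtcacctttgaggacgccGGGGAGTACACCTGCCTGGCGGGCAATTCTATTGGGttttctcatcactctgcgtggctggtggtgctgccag
Over the 36 capital bases, exons IIIb and IIIc of FGFR3 share 23 bases, and so do exon IIIb of FGFR2 and exon IIIb of FGFR3. The same stretch of exon IIIc shares 31 bases between FGFR2 and FGFR3. It was located by a search for set amino acids, so part of the likeness follows from the search.

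The exon junctions of the main transcripts of FGFR3 and FGFR2 are shown next, because FGFR3-204 and FGFR2-213 lack exons of this kind, with FGFR3-202 for comparison. Lower case is the end of the upstream exon and capitals the start of the downstream exon.
FGFR3-202, exon IIIa to exon IIIb: gttaccgtgctcaagTCCTGGATCAGTGAG
FGFR3-204, exon IIIa past IIIb, IIIc and the transmembrane exon: gttaccgtgctcaagGTGTCCCTGGAGTCC
FGFR2-213, past IIIa, IIIb and IIIc to the transmembrane exon: acctggatgttgtggCGCCTGGAAGAGAAA
FGFR3-202 and FGFR3-204 leave the same exon and differ in the exon they join. Read counts over single junctions are not in the tables used here, so transcript values rest on how the authors' model divided the reads of a gene.

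The libraries held 234040000 to 625900000 expected counts, and replicate 1 had the most in both groups. Of 19725 genes tested with edgeR's quasi-likelihood test, 5010 (25.4%) were higher after auxin and 5311 (26.9%) lower at an adjusted p under 0.05, and the median log2 fold change was 0.02. The share of calls on the higher side was 48.5%, against 59.7% with upper-quartile factors and 24.6% with limma on log2(TPM + 1). The epithelial identity of the line was visible in all libraries: the summed level of KRT8, KRT18, KRT19, EPCAM, CDH1 and CLDN4 was 1766 to 2438 TPM in DMSO and 2238 to 2689 TPM after auxin, where TPM is a level per transcript length. Of 13 markers of leukocytes, endothelium and fibroblasts, 11 stayed under 1 TPM in every library, and PTPRC and CD3E were at 0.00 TPM in the mean of both groups. The exceptions were COL1A1 (1.81 TPM in DMSO and 0.813 TPM after auxin) and CD68, a lysosomal protein of macrophages that is not restricted to them (49.4 and 14.7 TPM). In bulk RNA, fewer cells of a type and less RNA per cell cannot be told apart.

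All 5 receptor genes had lower RNA levels after auxin, from 1.23-fold lower in FGFR2 to 16.3-fold lower in FGFR3. In CPM (library totals adjusted by TMM), the 3 auxin libraries lay below the 3 DMSO libraries for FGFR2, FGFR3, FGFR4 and FGFRL1. Over the 19725 tested genes this pattern was found in 30.4%. FGFR1 had it too, but was selected on a difference between these groups. FGFR2, FGFR3, FGFR4 and FGFRL1, the 4 genes that can be tested, were all called lower, against the 26.9% of tested genes called lower. The posterior standard deviation of the count deposited for each receptor gene was 0, so the authors' model divided no reads between these genes and others.

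FGFR3 encodes the receptor known for activating mutations in dwarfism and bladder cancer. It had 15.9, 14.0 and 13.6 CPM in DMSO replicates 1, 2 and 3 and 1.04, 0.812 and 0.804 CPM in auxin replicates 1, 2 and 3. The auxin libraries were all far below the DMSO libraries. The log2 fold change was -4.03 (SE 0.14, adjusted p = 2.7e-06), or 16.3-fold lower, and only 29 of 19725 tested genes had a lower log2 fold change. The gene lies at 1793293 to 1808872 on chromosome 4 (ENSG00000068078.18, plus strand).

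FGFR4, the receptor for FGF19 in liver and gut epithelium, had 14.1, 11.0 and 10.8 CPM in DMSO and 4.31, 3.60 and 3.81 CPM after auxin. The groups were separate, and the log2 fold change was -1.61 (SE 0.14, edgeR adjusted p = 7.6e-05), or 3.06-fold lower. The gene lies at 177086886 to 177098144 on chromosome 5 (ENSG00000160867.14, plus strand).

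FGFRL1, the decoy-like family member without a kinase, had 132.9, 99.3 and 99.1 CPM in DMSO and 84.8, 63.03 and 77.4 CPM after auxin. Its log2 fold change was -0.56 (SE 0.15, edgeR adjusted p = 0.0175). The call was lost without auxin replicate 2 (log2 fold change -0.44, edgeR adjusted p = 0.0528) and with upper-quartile scaling (log2 fold change -0.43, edgeR adjusted p = 0.0591), which moved the median of all genes by 0.12. The gene lies at 1009936 to 1026897 on chromosome 4 (ENSG00000127418.14, plus strand).

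FGFR2, whose IIIb form is the receptor for FGF7 and FGF10 in epithelia, had 32.5, 33.9 and 33.8 CPM in DMSO and 27.7, 27.3 and 26.5 CPM after auxin. The difference was small but its replicates were tight, and edgeR put the log2 fold change at -0.30 (SE 0.055, adjusted p = 0.0031). On the TPM scale, where replicate 1 was higher in both groups, limma gave an adjusted p of 0.22 with log2(TPM + 1). The gene lies at 121478334 to 121598458 on chromosome 10 (ENSG00000066468.22, minus strand).

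FGFR1 had 58.2, 44.7 and 46.6 CPM in DMSO and 28.7, 20.1 and 21.2 CPM after auxin, a log2 fold change of -1.09 (2.13-fold lower) that is given without a test. Taken replicate by replicate, the log2 differences were -3.93 to -4.10 in FGFR3, -1.50 to -1.71 in FGFR4, -1.02 to -1.15 in FGFR1, -0.36 to -0.66 in FGFRL1 and -0.23 to -0.35 in FGFR2. The ranges of FGFRL1 and FGFR2 nearly touched, and the other neighbours in this order were well apart.

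**Figure D1:**
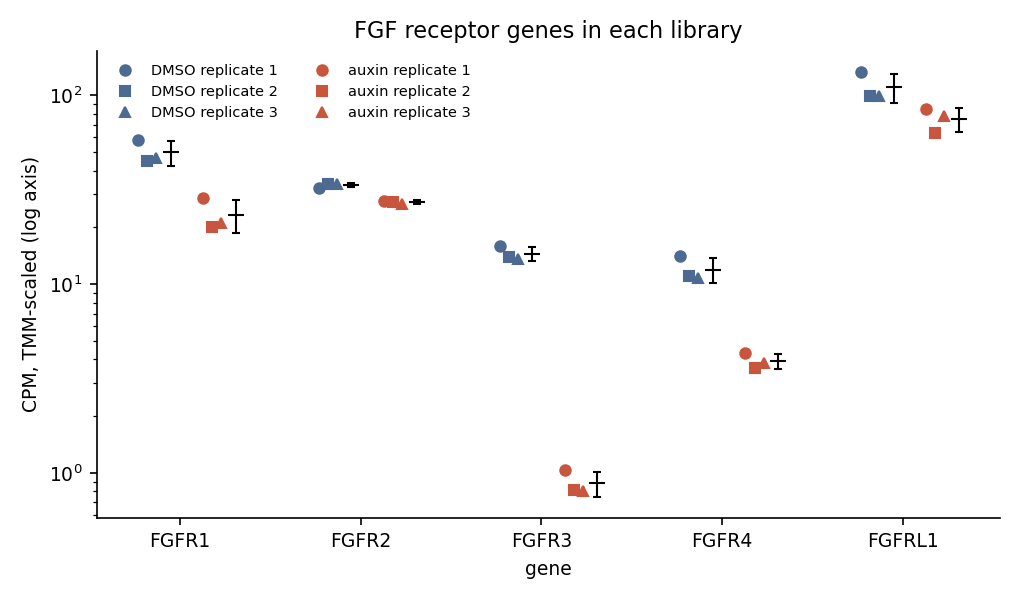
CPM (log axis) of the 5 receptor genes in each library, with DMSO in blue, auxin in red, replicates by symbol, and a bar and error bars for the mean ± SD (n = 3). The auxin points lie below the DMSO points for every gene, with the widest gap in FGFR3 (14.5 against 0.884 CPM in the mean).

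Per transcript length, the order of the 5 genes was FGFRL1, FGFR1, FGFR2, FGFR4, FGFR3 in 6 of 6 libraries. In DMSO the means were 39.3 ± 16.2 TPM for FGFRL1, 18.9 ± 7.0 for FGFR1, 10.7 ± 2.1 for FGFR2, 5.57 ± 2.31 for FGFR4 and 4.15 ± 1.49 for FGFR3 (SD, n = 3). After auxin they were 23.4 ± 6.5, 10.3 ± 2.9, 7.95 ± 1.20, 1.83 ± 0.56 and 0.270 ± 0.104 TPM (SD, n = 3). Within 1 SD, FGFR2 and FGFR4 were apart in both groups, FGFR1 and FGFR2 overlapped in both, and the other neighbours overlapped in DMSO only. Replicate 1 had more TPM than the other replicates for each gene in both groups. Among the replicates of a group, the makeup of the family was steadier than its level. FGFR3 made up 5.23%, 5.23% and 5.42% of the family's summed TPM in DMSO and 0.698%, 0.588% and 0.534% after auxin. FGFR4 went from 7.34%, 7.10% and 6.61% to 4.38%, 4.06% and 4.00%. FGFR2 took the opposite course, from 11.7%, 15.1% and 15.6% to 16.7%, 21.1% and 17.8%. For each of these 3 genes the groups did not overlap, and the two-sided exact permutation test gave p = 0.1, the smallest that 3 libraries against 3 allow. The shares of FGFRL1 (49.5% and 53.4% in the mean, exact permutation p = 0.2) and FGFR1 (24.0% and 23.4%) overlapped between the groups.

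In FGFR1 the groups differed in how the reads were divided among transcripts as well as in their number. The gene lies at 38400215 to 38468834 on chromosome 8 (ENSG00000077782.20, minus strand). Of its 43 transcripts 20 are annotated as protein-coding, 13 as retained-intron, 4 as nonsense-mediated decay (NMD) targets and 6 as processed transcripts. NMD is the pathway that destroys messenger RNAs whose stop codon lies upstream of an exon junction. A transcript's share below is its percentage of the expected count of the gene.

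FGFR1-243, annotated as an NMD target, had 4.07%, 5.26% and 5.25% of the FGFR1 count in DMSO and 37.7%, 40.6% and 44.4% after auxin. It was a minor transcript in each DMSO library and the largest in each auxin library. In CPM it went from 2.37, 2.35 and 2.44 to 10.8, 8.16 and 9.41, a ratio of means of 3.96. Without it, the rest of the gene had 55.9, 42.3 and 44.1 CPM in DMSO and 17.9, 11.9 and 11.8 CPM after auxin. FGFR1-243 has 22 exons, 6216 bases and an open reading frame of 818 codons that holds exon IIIc and the transmembrane exon. Its stop codon is followed by 3 further exons, and it ends 10923 bases beyond the 3′ end of FGFR1-211.

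Most of the share that was lower after auxin was in protein-coding transcripts. FGFR1-211, a full-length IIIc form of 853 codons, had 19.5%, 28.9% and 28.4% in DMSO and 3.24%, 3.59% and 8.70% after auxin. FGFR1-206, a IIIc form of 820 codons with a first exon further upstream, had 27.5%, 13.1% and 14.4% in DMSO and 14.6%, 12.2% and 5.19% after auxin. Those groups overlapped. FGFR1-207, which holds exon IIIb and lacks the exon of the first immunoglobulin domain, had 12.1%, 14.3% and 14.1% in DMSO and 6.09%, 10.1% and 7.86% after auxin. FGFR1-204, a IIIc form of 733 codons without that first domain, had 5.81%, 5.66% and 8.02% in DMSO and a count of 0 in all auxin libraries.

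FGFR1-238 and FGFR1-243 share a feature that most of the other transcripts lack. Both use the form of the transmembrane exon that is 6 bases shorter, which leaves out a valine and a threonine just inside the membrane (the VT-minus form). FGFR1-238 had 14.2%, 17.0% and 17.7% in DMSO and a count of 0 in the 3 auxin libraries. A count of 0 allows a share of up to 0.0640% by counting error alone, but the authors' posterior means for FGFR1-238 were 111, 61.6 and 104 counts in these libraries, so the division of reads carries more error than that. The 3 VT-minus transcripts together, FGFR1-202 included, had 10.7, 10.0 and 10.7 CPM in DMSO and 10.8, 8.16 and 9.41 CPM after auxin. The 13 transcripts with the longer form went from 42.8, 30.8 and 33.1 CPM to 13.2, 8.55 and 7.95 CPM. The VT-minus sums of the groups overlapped, while within them FGFR1-238 held most of the count in DMSO and FGFR1-243 all of it after auxin.

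Other gains were smaller or uneven. FGFR1-214, a IIIc form of 822 codons, had a count of 0 in DMSO and 7.59%, 6.37% and 11.9% after auxin, though its posterior means in DMSO were 48.6, 40.9 and 46.9 counts. FGFR1-242, with neither IIIb nor IIIc and an open reading frame of 228 codons, had 2.59%, 0.00% and 0.54% in DMSO and 9.76%, 5.39% and 0.00832% after auxin, so auxin replicate 3 lay among the DMSO values. It is annotated as protein-coding and counted as such below, though 9 exons follow the exon with its stop codon. Transcripts that hold the exon of the first immunoglobulin domain had 66.2%, 64.9% and 66.3% of the counts in DMSO and 64.5%, 63.1% and 70.8% after auxin, which overlap. Of the TPM they had 33.6%, 30.9% and 35.1% in DMSO and 24.5%, 22.0% and 23.3% after auxin, which do not. The IIIb class, which is FGFR1-207 alone, went from 13.5% to 8.02% in the mean and the IIIc class from 77.0% to 67.6%. Both the IIIc class and the transcripts with the exon of the first immunoglobulin domain include FGFR1-243, whose share was higher after auxin. All FGFR1 transcripts other than FGFR1-243 held 95.1% of the counts in DMSO and 59.1% after auxin in the mean.

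**Figure D2:**
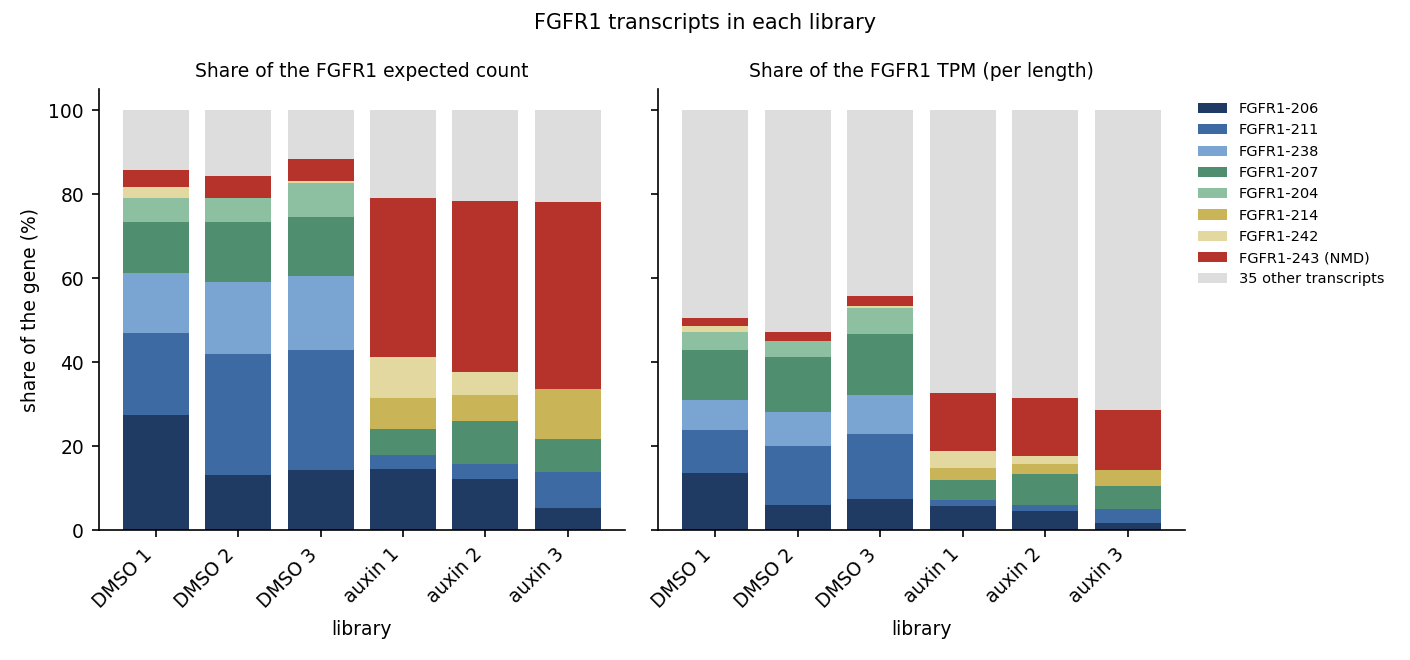
Stacked shares (%) of the FGFR1 transcripts with a mean share of at least 5% in either group, by library, as shares of the expected count (left) and of the TPM (right). FGFR1-243, in red, holds 37.7% to 44.4% of the counts and 13.7% to 14.1% of the TPM in the auxin libraries.

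The scale decides how large the FGFR1 shift looks. Counts weigh a transcript by its length and TPM does not, and FGFR1-243 is the longest of the transcripts named here. As a share of FGFR1 TPM it had 1.82%, 2.18% and 2.47% in DMSO and 13.7%, 13.7% and 14.1% after auxin. NMD-annotated transcripts together went from 7.37% ± 0.75 to 41.2% ± 3.4 of the counts, but only from 12.4% ± 2.3 to 14.3% ± 0.1 of the TPM (SD, n = 3). The difference between the scales included FGFR1-236, a short NMD-annotated transcript of 842 bases, which had 11.6%, 10.4% and 6.87% of the TPM in DMSO and 0.0741%, 0.00% and 0.00% after auxin. Protein-coding transcripts had lower shares after auxin on both scales, from 87.9% ± 1.5 to 41.3% ± 3.4 of the counts and from 69.3% ± 4.6 to 37.9% ± 2.7 of the TPM. Retained-intron transcripts had higher shares on both, from 4.57% ± 0.87 to 16.0% ± 0.3 of the counts and from 16.6% ± 2.9 to 38.5% ± 3.6 of the TPM.

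On the CPM scale, the protein-coding transcripts of FGFR1 summed to 51.3, 38.5 and 41.6 CPM in DMSO and 12.9, 8.17 and 8.07 CPM after auxin. The retained-intron transcripts had 2.83, 2.34 and 1.67 CPM in DMSO and 4.62, 3.26 and 3.30 CPM after auxin. The groups did not overlap in either case, and the retained-intron sum was higher while the gene as a whole was lower.

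**Figure D3:**
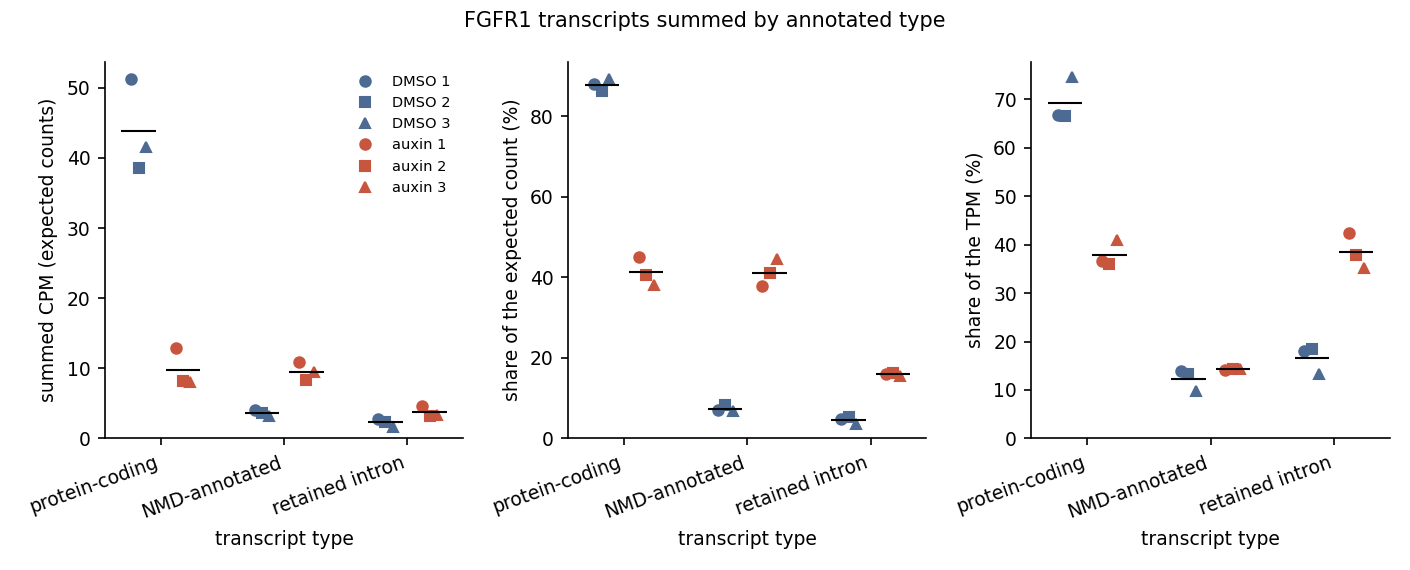
FGFR1 transcripts summed by annotated type, per library (symbols) with the group mean (line), as CPM, as a share of the expected count and as a share of the TPM. NMD-annotated transcripts separate widely on the count scales. Of the TPM they hold 9.69% to 14.0% in DMSO and 14.2% to 14.4% after auxin, close together but without overlap.

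The 3′ end of FGFR1 overlaps another gene. The last 9313 bases of the FGFR1 locus, which hold the 3′ part of FGFR1-243, are shared with LETM2, a mitochondrial membrane protein gene on the opposite strand. LETM2 had 23.3, 26.9 and 31.6 CPM in DMSO and 34.6, 46.2 and 53.3 CPM after auxin (log2 fold change 0.71, SE 0.17, edgeR adjusted p = 0.0113). On the scales log2(TPM + 1) and log2(TPM + 0.1) the call was lost (both 0.53, limma adjusted p = 0.055 and 0.053). Whether the authors' counting used strand is not given in the sources used here, and the part of LETM2 reads in the FGFR1-243 value was not tested. The posterior standard deviation of the count was 0 for FGFR1 in every library, which does not tell whether reads of LETM2 were counted in it. Another 3 annotated genes overlap FGFR1 (AC087623.1, AC087623.3 and RPS20P22), and none exceeded 0.489 CPM in any library. FGFR1-239, the other transcript with its end in this stretch, had at most 0.0824% of the FGFR1 count in any library.

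Of 19 transcripts of FGFR2, FGFR3 and FGFR4 that could be tested, 2 had a different share at an adjusted p under 0.05 with limma on the log2 odds, a count near the 13.9% of 50247 transcripts of all genes. FGFRL1 had a single transcript of over 1% of its count, FGFRL1-201, with 99.1% to 99.5% in all libraries, and was not tested.

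FGFR2-213 was the main transcript of FGFR2, with 60.0%, 58.1% and 58.4% in DMSO and 58.8%, 61.0% and 62.0% after auxin. It joins the second immunoglobulin domain straight to the transmembrane exon, as its junction above shows, and is annotated with 709 codons. It is also among the FGFR2 transcripts that reach the distal 3′ end, IIIc forms included, so its share may include reads of that end. FGFR2-211, an epithelial IIIb form without the first immunoglobulin domain, followed with 25.7%, 22.7% and 23.2% in DMSO and 23.1%, 24.2% and 20.5% after auxin. For neither was a difference detected (log2 odds 0.11, SE 0.12, limma adjusted p = 0.67, and -0.10, SE 0.14, limma adjusted p = 0.75).

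Summed by exon, the IIIb transcripts of FGFR2 had 28.8%, 28.0% and 28.0% in DMSO and 30.3%, 28.5% and 28.4% after auxin, with overlapping groups. The IIIc transcripts had 7.44%, 9.95% and 8.83% in DMSO and 6.17%, 5.45% and 5.31% after auxin. These groups did not overlap (two-sided exact permutation p = 0.1, the smallest possible). Within this class FGFR2-224, a IIIc form of 732 codons, fell from 3.13%, 5.69% and 5.20% to 1.06%, 1.21% and 1.25% (log2 odds -1.99, SE 0.32, limma adjusted p = 0.0137). The call was lost without DMSO replicate 2 or 3 (limma adjusted p = 0.067 and 0.066) and with edgeR's diffSpliceDGE (log2 difference -1.37, adjusted p = 0.065). The exon of the first immunoglobulin domain was in transcripts holding 66.1%, 65.3% and 65.0% of the count in DMSO and 70.0%, 68.4% and 74.4% after auxin, again without overlap (exact permutation p = 0.1).

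FGFR3 was mostly represented by FGFR3-204, which skips from exon IIIa past IIIb, IIIc and the transmembrane exon and is annotated with 694 codons. It had 69.8%, 68.5% and 66.4% of the FGFR3 count in DMSO and 72.8%, 78.1% and 89.0% after auxin. FGFR3-202, the IIIb form of 808 codons with the transmembrane exon, had 21.2%, 24.6% and 27.7% in DMSO and 16.4%, 18.2% and 0.00% after auxin. Neither share passed the test (log2 odds 0.97, SE 0.41, limma adjusted p = 0.21, and -2.70, SE 1.74, limma adjusted p = 0.42). With posterior mean counts in place of expected counts the FGFR3-202 share was called lower (log2 odds -1.71, limma adjusted p = 0.018). After auxin these shares rest on 670, 194 and 178 counts of the gene, and the posterior standard deviation reached 7.99% of the gene count for FGFR3-204. As a share of FGFR3 TPM, FGFR3-204 had 63.4%, 67.8% and 63.5% in DMSO and 52.5%, 65.0% and 72.7% after auxin, which overlap. FGFR3-210, with both IIIb and IIIc, is annotated as protein-coding with 364 codons, and 10 exons follow the exon with its stop codon. It had 2.54%, 2.47% and 1.62% in DMSO and a count of 0 after auxin (limma adjusted p = 0.0242). This call was kept in 3 of 10 alternatives that gave a value. It was lost with an offset of 5 counts (log2 odds -0.43, limma adjusted p = 0.73), with diffSpliceDGE (adjusted p = 0.16), with a replicate block (limma adjusted p = 0.056), without DMSO replicate 3 or auxin replicate 2 (limma adjusted p = 0.083 and 0.051) and with replicates 2 and 3 alone (limma adjusted p = 0.055). With posterior mean counts its direction was reversed.

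In CPM both FGFR3 forms were lower. FGFR3-204 had 11.1, 9.59 and 9.07 CPM in DMSO and 0.754, 0.634 and 0.715 CPM after auxin. FGFR3-202 had 3.38, 3.44 and 3.78 CPM in DMSO and 0.170, 0.147 and 0.00 CPM after auxin. Retained-intron transcripts of FGFR3 had 2.45%, 0.716% and 1.32% of the count in DMSO and 8.09%, 3.78% and 2.84% after auxin, without overlap (exact permutation p = 0.1, the smallest possible). The whole gene had 670, 194 and 178 counts in the auxin libraries, so these shares rest on few reads. The summed CPM of these transcripts was 0.223 in DMSO and 0.0458 after auxin in the mean. The direction of this level was opposite to that of FGFR1, where retained-intron CPM was higher after auxin.

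FGFR4 has no IIIb exon. FGFR4-201, the full-length form of 802 codons, had 72.7%, 78.2% and 79.3% in DMSO and 65.6%, 76.4% and 70.9% after auxin (limma adjusted p = 0.37). FGFR4-202, which lacks the transmembrane exon, had 18.9%, 12.4% and 13.0% in DMSO and 20.8%, 14.4% and 15.2% after auxin (limma adjusted p = 0.71). Both pairs of groups overlapped, and no change in the proportions of these forms was detected beside the 3.06-fold lower level of the gene. The retained-intron share of FGFR4 overlapped too (4.78% ± 0.91 and 5.66% ± 3.38, SD, n = 3).

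**Figure D4:**
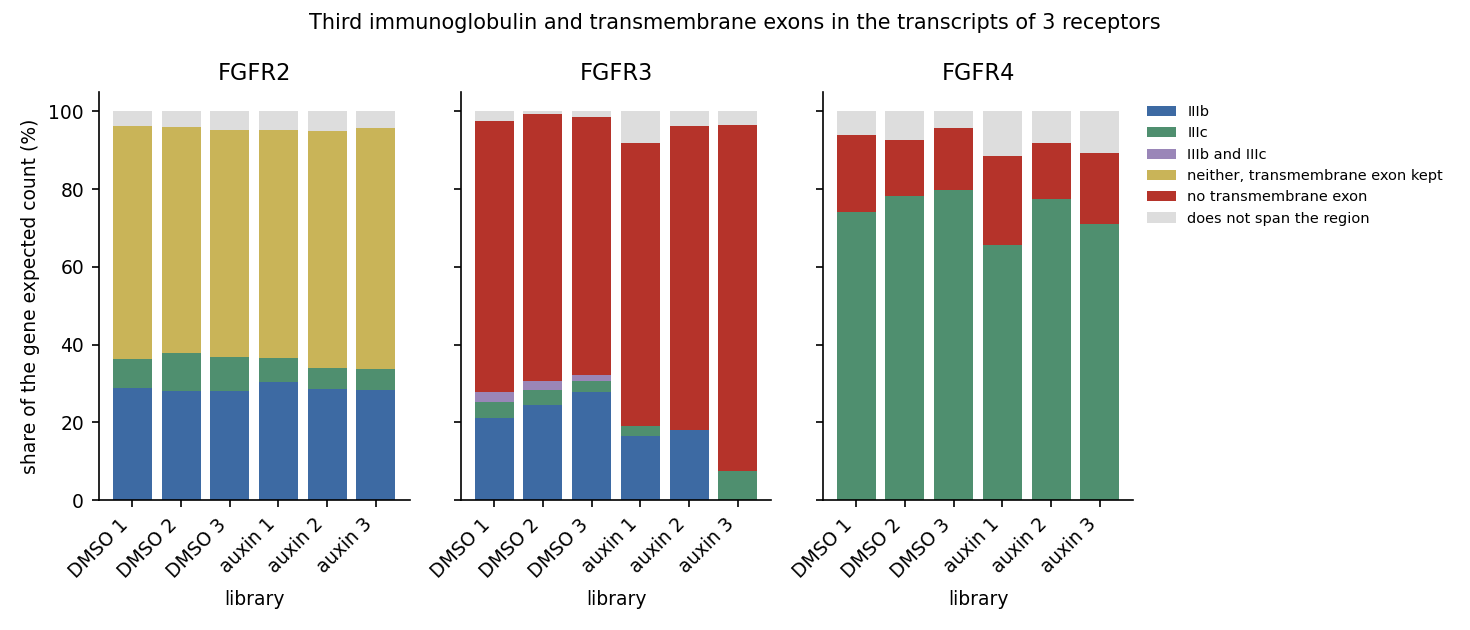
Shares (%) of the expected count of FGFR2, FGFR3 and FGFR4 held by transcripts grouped by IIIb, IIIc and transmembrane exons, by library. The IIIb class of FGFR2 lies within 28.0% to 30.3% in all libraries, and the class without a transmembrane exon holds 66.4% to 89.0% of FGFR3.

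The members differ in gene structure. FGFR3, FGFR4 and FGFRL1 are compact, spanning 15580, 11259 and 16962 bases, whereas FGFR1 spans 68620 and FGFR2 120125 bases. The G+C content of the most abundant transcript was 61.8% for FGFR3, 63.6% for FGFR4 and 62.1% for FGFRL1, which lie at the 91.1, 94.6 and 91.8 percentiles of 19708 genes tested with a sequence. It was 55.9% for FGFR1 and 45.5% for FGFR2 (the 74.2 and 38.1 percentiles). FGFR2, with the longest span and the lowest G+C content of the 5, also had the smallest fold change. FGFRL1 shares the compact G+C-rich structure of FGFR3 and FGFR4 and had a smaller fold change than either. A link between gene structure and fold change was not tested.

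The promoter of FGFR3 was among the most G+C-rich of the reference. RefSeq promoter windows of 300 bases (250 before and 50 after the start, GRCh38.p14) were matched for FGFR2, FGFR3, FGFR4 and FGFRL1, and the FGFR3 window had 86.3% G+C, the 99.9 percentile of 35116 windows. It held the GC box GGGCGG 8 times, counted on both strands with overlaps allowed. FGFR4 had 7 at its first start and 0 at its second, FGFR2 had 5 at its outermost start and 0 or 1 at the other 4, and FGFRL1 had 4. Of all windows 44.95% held at least 1 GC box and 5.14% held 5 or more. The TATA box TATAAA was in none of these 9 windows and in 11.5% of all, which says only that these letters are absent there. The 250 bases before the FGFR3 start, at chr4:1793043-1793292 on the plus strand, are shown with GC boxes in capitals.
FGFR3 upstream: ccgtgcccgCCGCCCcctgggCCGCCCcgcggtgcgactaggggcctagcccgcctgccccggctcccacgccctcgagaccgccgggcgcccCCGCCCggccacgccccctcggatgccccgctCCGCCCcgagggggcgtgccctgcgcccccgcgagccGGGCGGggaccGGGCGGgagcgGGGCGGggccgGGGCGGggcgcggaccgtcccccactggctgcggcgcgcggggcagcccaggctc
All 8 GC boxes lie in these 250 bases, upstream of the start.

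Genes next to the receptors did not share a direction. TACC3, a mitotic spindle protein gene 48116 bases from FGFR3, fell from 60.9, 50.9 and 58.8 CPM to 13.0, 10.1 and 10.9 CPM (log2 fold change -2.33, SE 0.12, edgeR adjusted p = 9.3e-06). LETM1, 2606 bases from the other end of FGFR3, had 50.2 ± 6.3 and 51.4 ± 5.6 CPM (SD, n = 3, log2 fold change 0.03, edgeR adjusted p = 0.82). Around FGFR4, ZNF346 did not pass the test (log2 fold change 0.18, edgeR adjusted p = 0.18, or 0.015 with a replicate block) and NSD1 rose slightly (0.24, edgeR adjusted p = 0.0067). Around FGFR1, NSD3 fell (-0.73, edgeR adjusted p = 6.1e-05) and TACC1 fell (-0.49, edgeR adjusted p = 0.0005). Around FGFR2, ATE1 rose (0.37, edgeR adjusted p = 0.0017) and WDR11 did not pass (0.09, edgeR adjusted p = 0.35, or 0.015 with a replicate block). On log2(TPM + 1) the calls of NSD1 (0.077, limma adjusted p = 0.84), TACC1 (-0.49, limma adjusted p = 0.094) and ATE1 (0.20, limma adjusted p = 0.45) were lost. Neither IDUA nor SPON2, the neighbours of FGFRL1, passed the test (edgeR adjusted p = 0.34 and 0.12), though IDUA did with a replicate block (log2 fold change -0.59, edgeR adjusted p = 0.0099).

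Among 11730 protein-coding genes of at least 1 CPM, those with the pattern most like each member over the 6 libraries were found by the root mean square difference of centred log2 CPM. They were RUSC2 and LHX2 for FGFR1 (0.018 and 0.023), RAB6B and RTF1 for FGFR2 (0.021 and 0.021), and NFKB2 and ADCY3 for FGFR3 (0.059 and 0.060). For FGFR4 they were RAVER1 and NDUFAF3 (0.043 and 0.044), and for FGFRL1 KLF2 and AUP1 (0.054 and 0.061). None of the 10 is a neighbour of its member. NFKB2 went from 43.0 ± 2.4 to 2.67 ± 0.33 CPM and ADCY3 from 52.5 ± 5.0 to 3.30 ± 0.66 CPM (SD, n = 3).

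Around the receptors, 105 genes of the pathway were taken in lists by role. Of these 82 could be tested, 16 rose, 33 fell and 33 did not pass, where 25.4% of all tested genes rose and 26.9% fell. The median log2 fold change was -0.15 against 0.02 over all genes. The balance moved with the scaling, with 26 higher and 28 lower with upper-quartile factors, 5 higher and 21 lower with limma on log2(TPM + 1), and 25 higher and 45 lower with a replicate block.

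Few FGF ligands were expressed. Of 22 genes, 17 stayed under 1 TPM in every library, 8 could be tested, 2 rose and 2 fell (median log2 fold change 0.08), which is near the 25.4% and 26.9% of all tested genes. FGF19, the gut hormone that signals through FGFR4, was the most abundant and fell from 29.7, 28.4 and 28.8 CPM to 14.6, 13.4 and 14.5 CPM (log2 fold change -1.03, SE 0.065, edgeR adjusted p = 2.3e-05). FGF11, an intracellular family member that does not act through the receptors, fell as well (-1.81, SE 0.17, edgeR adjusted p = 0.00013). FGF1, which binds all 4 kinase receptors, rose from 1.41, 1.49 and 1.68 CPM to 4.17, 5.74 and 5.78 CPM (log2 fold change 1.78, SE 0.16, edgeR adjusted p = 0.00011). FGF2 rose from 13.6, 11.3 and 11.0 CPM to 21.0, 19.0 and 17.1 CPM (log2 fold change 0.67, edgeR adjusted p = 0.0024), but was not called on log2(TPM + 1) (0.29, limma adjusted p = 0.42).

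Co-receptors and FGF-binding proteins went both ways. Of 18 genes 9 could be tested, 2 rose and 4 fell (median log2 fold change -0.38), against 0 higher and 3 lower with limma on log2(TPM + 1). Over all tested genes 25.4% rose and 26.9% fell. The klothos KL and KLB, which FGF19 and its relatives need, were at 0.00 TPM in the mean of both groups. The heparan sulfate proteoglycan GPC1 fell from 71.2 ± 6.8 to 26.8 ± 3.2 CPM and SDC1 from 75.6 ± 5.5 to 41.0 ± 1.4 CPM (SD, n = 3, edgeR adjusted p = 4.8e-05 and 5.3e-05). SDC4, the most abundant of this list, rose from 265, 305 and 289 CPM to 377, 405 and 408 CPM (log2 fold change 0.47, edgeR adjusted p = 0.0015). FGFBP1, a carrier that releases FGFs from the matrix, rose by 0.73 on the log2 scale (edgeR adjusted p = 0.0053). On log2(TPM + 1) neither SDC4 (0.31, limma adjusted p = 0.17) nor FGFBP1 (0.35, limma adjusted p = 0.17) was called.

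Of 25 adaptors and signal relay genes, all tested, 13 fell and 2 rose (median log2 fold change -0.23), against 11 lower and 4 higher with upper-quartile factors and 18 lower and 4 higher with a replicate block. The shares over all tested genes were 26.9% lower and 25.4% higher. AKT1, a kinase of the PI3K branch, fell from 173, 146 and 151 CPM to 19.3, 14.6 and 15.7 CPM (log2 fold change -3.25, SE 0.13, edgeR adjusted p = 3.6e-06). PLCG1, the phospholipase that binds activated receptors, fell from 28.3, 25.5 and 26.0 CPM to 5.55, 3.03 and 3.15 CPM (-2.76, SE 0.24, edgeR adjusted p = 9.2e-05). NRAS, a small GTPase of the ERK branch, rose by 0.27 on the log2 scale (edgeR adjusted p = 0.018). Its call was lost on the TPM scales and without DMSO replicate 1 or 2 or auxin replicate 2 or 3 (edgeR adjusted p from 0.065 to 0.074). PTPN11, the most abundant, did not pass (594 ± 75 and 670 ± 80 CPM, SD, n = 3, edgeR adjusted p = 0.28), but did with a replicate block (edgeR adjusted p = 0.0012), upper-quartile factors (edgeR adjusted p = 0.047) or replicates 2 and 3 alone (edgeR adjusted p = 0.017).

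Of 14 inhibitors of the pathway 6 rose and 0 fell with edgeR (median log2 fold change 0.09), and 3 were lower at an unadjusted p under 0.05. Of all tested genes 25.4% rose and 26.9% fell. The median was -0.04 on log2(TPM + 1), with 1 higher and 0 lower by limma. A replicate block gave 7 higher and 4 lower, and DESeq2 6 higher and 2 lower. IL17RD, a membrane antagonist of FGF signalling, rose from 37.0, 39.7 and 35.3 CPM to 73.1, 77.3 and 69.4 CPM (log2 fold change 0.97, SE 0.068, edgeR adjusted p = 3.5e-05). GRB14 rose by 0.96 (edgeR adjusted p = 0.00024), and DUSP6, the ERK phosphatase and most abundant of the list, by 0.64 (190 ± 24 to 297 ± 29 CPM, SD, n = 3, edgeR adjusted p = 0.0029). On log2(TPM + 1) the calls of IL17RD (0.68, limma adjusted p = 0.052) and GRB14 (0.58, limma adjusted p = 0.064) were lost.

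The 13 target genes of the pathway were split, with 5 higher, 7 lower and 1 not called (median log2 fold change -0.32), against 4 higher and 2 lower with limma on log2(TPM + 1). The background was 25.4% higher and 26.9% lower. ETV4, an ETS factor often used as a readout of FGF signalling, fell from 20.6, 20.4 and 18.8 CPM to 3.92, 3.31 and 3.16 CPM (log2 fold change -2.52, SE 0.11, edgeR adjusted p = 4.8e-06), and CCND1 fell by 0.77 on the log2 scale (edgeR adjusted p = 4.5e-05). FOSL1, the most abundant by TPM over both groups together, rose from 186 ± 8 to 541 ± 46 CPM (log2 fold change 1.54, edgeR adjusted p = 1.1e-05) and MYC from 167 ± 5 to 403 ± 15 CPM (SD, n = 3, 1.27, edgeR adjusted p = 7.5e-06). In DMSO alone CCND1 had a higher mean than FOSL1 (293 against 145 TPM). DUSP6, SPRY2 and SPRY4 are in this list and among the inhibitors.

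RNA-binding proteins known to steer exon choice in the receptors formed the last list. Of 16 genes 7 fell and 1 rose (median log2 fold change -0.13), against 8 lower and 5 higher with a replicate block and 6 lower and 5 higher with upper-quartile factors. Among all tested genes 26.9% fell and 25.4% rose. PTBP1, a repressor of exon IIIb inclusion, fell from 417, 361 and 381 CPM to 91.97, 76.1 and 78.9 CPM (log2 fold change -2.23, SE 0.098, edgeR adjusted p = 5.5e-06), while its paralog PTBP2 rose by 0.62 (edgeR adjusted p = 0.00021) and was not called on log2(TPM + 1) (0.36, limma adjusted p = 0.25). ESRP2, an epithelial factor that promotes exon IIIb, fell from 23.4, 23.7 and 22.4 CPM to 6.72, 4.16 and 4.04 CPM (-2.21, SE 0.20, edgeR adjusted p = 0.00011). Its more abundant partner ESRP1, named outside the rule because it acts with ESRP2, fell from 209, 246 and 237 CPM to 126, 148 and 132 CPM (-0.77, SE 0.089, edgeR adjusted p = 0.00034). HNRNPA1, the most abundant, fell with a p close to the threshold (1133 ± 200 and 814 ± 140 CPM, SD, n = 3, edgeR adjusted p = 0.049). Its call was lost without any library except DMSO replicate 1, with edgeR adjusted p from 0.056 to 0.13, and with upper-quartile factors (edgeR adjusted p = 0.080). Beside these changes the IIIb share of the whole FGFR2 count was 28.3% ± 0.5 in DMSO and 29.1% ± 1.1 after auxin (SD, n = 3). The IIIc share was 8.74% ± 1.26 in DMSO and 5.64% ± 0.46 after auxin (SD, n = 3), without overlap. Most of the remaining count was of FGFR2-213, which holds neither exon. The part of these changes in either share was not tested.

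**Figure D5:**
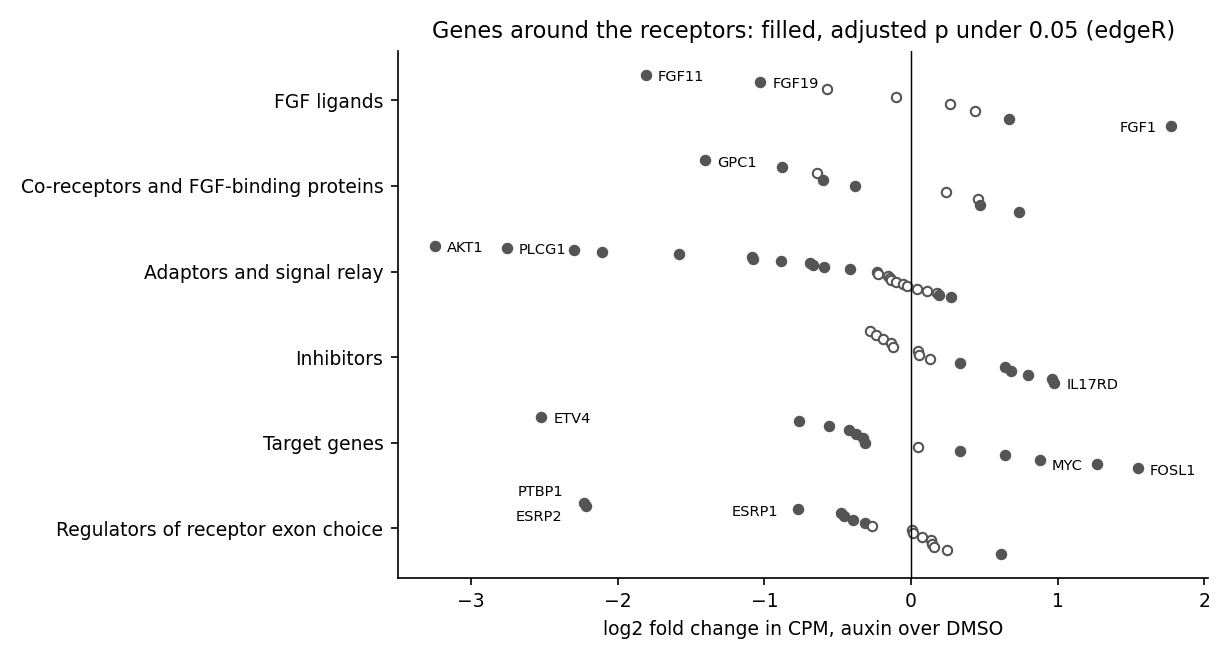
Log2 fold change in CPM, auxin over DMSO, of the tested genes in each list, filled where the edgeR adjusted p was under 0.05. The widest falls are AKT1 (-3.25) and PLCG1 (-2.76) among signal relay genes, and the inhibitors have no filled point to the left of 0.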

How the data were processed

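Total RNA was depleted of ribosomal RNA and sequenced as stranded, paired-end libraries, per the labels' protocols. Per the file headers, the authors deposited per gene and per transcript an expected count (not normalized), a TPM, a posterior mean count and a posterior standard deviation. The submitters' processing notes list bcl2fastq, STAR, DESeq2 and GRCh38 without roles. The counting tool, its annotation and its strand setting are not given in the sources used here. Rows that name no human gene held 2.55 to 11.1 CPM and were left out. Library totals were 234040000 to 625900000 expected counts. The limit that a count of 0 allows takes in counting error alone.

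Expected counts were rounded for edgeR 4.0.16 (R 4.3.3; TMM, filterByExpr, glmQLFTest, Benjamini-Hochberg over 19725 genes, threshold 0.05). Transcript shares were tested as log2 odds with an offset of 0.5 counts in limma 3.58.1, over 50247 transcripts of at least 1% mean share in genes of at least 50 counts. Single shares were compared by exact permutation over 20 assignments. On simulated data, 90.3% of 2-fold but only 52% of 1.5-fold gene changes were recovered among 19397 genes. Genes without a call are thus not shown to be unchanged. For shares, the 2 largest transcripts of a gene were moved in opposite directions, which shifts their log2 odds by more than either move. Of these transcripts 91.5% were recovered with 4-fold moves in 2000 genes, but 0% with 2-fold moves in 200 genes. The settings differ in both size and number of genes.

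The members, lists and rules were chosen with earlier results of these data known. Named were all members, transcripts of at least 5% mean share in a group, the nearest tested coding neighbours and overlapping genes, 2 like-pattern genes per member, and in each list the 2 largest called changes each way plus the gene most abundant by TPM. FGFR2-224, FGFR3-210, FGFR1-202, FGFR1-236, FGFR1-239 and ESRP1 were named after their values were seen. Some items that these rules name are not reported here. Alternatives were DESeq2 1.42.0, other scaling, filters, TPM, offsets and share minimums, single libraries left out, replicates 2 and 3 alone, and a replicate block. Deviations from the group means correlated at 0.65, 0.27 and 0.28 between same-numbered libraries of the groups, all over 0.1. The replicate block takes the numbers as pairs. It was run as an alternative only, and the main tests did not pair the libraries. Libraries of different numbers correlated at -0.47 to 0.31, and DMSO replicate 3 correlated more with auxin replicate 2 (0.31) than with auxin replicate 3. The labels give no shared culture. This pairing is a hint from the data.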

Additional observations from a re-analysis of the deposited data

How the results depend on the processing

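All 5 receptor genes were lower after auxin under each of the 14 alternatives run. FGFR3 and FGFR4 kept an adjusted p under 0.05 in all of them, with log2 fold changes of -4.16 to -1.98 and -1.70 to -1.18. The low end of FGFR3 was with log2(TPM + 1), where the pseudocount understates changes of low genes. On TPM with pseudocounts of 1 and 0.1, tested with limma-trend, FGFR2 had -0.38 and -0.42 (adjusted p = 0.22 and 0.19), FGFRL1 had -0.68 and -0.71 (adjusted p = 0.17 and 0.15), and FGFR1 with log2(TPM + 1) had -0.80. These scales called 970 and 1017 genes higher, 2966 and 3223 lower, and among the pathway genes 5 and 8 higher and 21 and 21 lower. Upper-quartile factors gave FGFRL1 -0.43 (adjusted p = 0.059) and 26 pathway genes higher, and put 59.7% of all calls on the higher side, against 48.5% with TMM and 24.6% and 24.0% on the TPM scales, which shifted the median gene by -0.14 and -0.15. With 1 library left out in turn, FGFRL1 ranged from -0.65 to -0.40.

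Transcripts called for a share difference numbered 2537 with diffSpliceDGE and 3682 to 5785 with 1 library left out. By TPM, the FGFR1 differences were 11.7 percentage points for FGFR1-243, 1.93 for NMD-annotated, 21.9 for retained-intron and -31.4 for protein-coding transcripts. FGFR3-204 was reversed by TPM share (log2 odds -0.076, adjusted p = 0.95) and FGFR3-210 by posterior mean counts (0.57, adjusted p = 0.39). The replicate block gave 25 pathway genes higher and ended the FGFR3-210 call (adjusted p = 0.056). FGFR2, FGFR4 and FGFRL1 had -0.30, -1.61 and -0.55 with it, and, beside the genes given above with it (PTPN11, ZNF346, WDR11 and IDUA), it changed no other call of a named gene or receptor transcript. Small changes of neighbours were reversed on TPM with pseudocounts of 1 and 0.1 (WDR11 -0.067 and -0.068, ZNF346 -0.12 and -0.13, LETM1 -0.075 and -0.080). With 1 library left out in turn LETM1 ranged from -0.076 to 0.13, below 0 without DMSO replicate 2 or auxin replicate 1 (-0.057). The causes were not tested. In simulated data with few changed genes, the test of shares found none of the transcripts moved 2-fold in opposite directions. Shares without a call are therefore not shown to be equal.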
